A study of Schizosaccharomyces pombe with 2 samples.

Results

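The genes described here encode proteins of meiotic recombination, meiotic chromosome organization and spore formation in the fission yeast *Schizosaccharomyces pombe*. A list of 48 gene names was matched to the platform's gene symbols by exact spelling, and 45 of the names had a probe set, with 1 probe set each, among 2899 genes that could be followed by name on the array. The 3 names without a probe set of their own were *mnd1*, which the gene table gives as another name of the listed gene *mcp7*, and *meu13x* and *spo13*. The study compared 1 wt array (strain JK107, *h*-, no deletion) with 1 *sgo2*Δ array (strain JP2247, *h*-, lacking the shugoshin gene *sgo2*), each from exponentially growing cells in YES rich medium at 32 °C. Poly(A) RNA was labelled and hybridized to an Affymetrix GeneChip Yeast Genome 2.0 Array, and each probe set has 1 deposited linear signal intensity per array. With 1 array per strain no difference has a replicate check and no p-value was computed, and it is this number of arrays that sets the precision.

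In fission yeast, starvation for nitrogen switches haploid cells from growth to mating, after which the diploid zygote enters meiosis. Homologous chromosomes are then cut by the Spo11-related protein Rec12 and recombined, chromosomes divide in 2 rounds, and a forespore membrane encloses each nucleus to make spores. In growing cells many meiotic genes are kept off, some of them by a lack of transcription factors such as Mei4. Some transcripts that are made nonetheless, among them those of *mei4*, *rec8*, *ssm4* and *spo5*, are bound by the YTH-domain protein Mmi1. They are destroyed by the nuclear exosome with the help of the zinc-finger protein Red1. The cells studied here were growing in rich medium, and each gene was read against 2 marks of low signal. The first was the range of 17 tag probe sets without a target in yeast RNA, which reached 47.7 in wt and 43.9 in *sgo2*Δ. The second was a signal of 100, under which a gene was taken as near background. Probe sets differ in how strongly they bind, so signals of different genes were set against these marks and not against each other.

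The *sgo2* gene itself gave 581.5 in wt but 2.81 in the deletion strain, a difference of at least 5.82-fold with the dim signal set to 100. All 7 measured genes of growing cells were far above 100 on both arrays, among them *cdc2* at 2452 and 2915. Of 5 markers of *h*- (M) cells, 4 reached 100 on 1 array or both, and *mfm1* did not (55.6 and 42.4). The 3 markers of the opposite P cells were not absent either, with *map3*, the gene of the M-factor receptor, at 272 in wt and 315 in *sgo2*Δ. *map1* (70.6 and 118) and *map2* (126 and 83.6) each reached 100 on 1 array. Their part in the values given next was not tested. Between the arrays (*sgo2*Δ over wt) the median log2 ratio was 0.13 across the 2796 named genes that reached 100 on 1 array or both, so ratios are given as measured and, where it matters, after subtracting this shift.

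Of the 45 genes, 24 were under 100 on both arrays, 2 reached it in *sgo2*Δ alone and 19 reached it on both. Under 100 on both arrays were 53.3% of these genes against 3.55% of all named genes. Inside the range of the tag probe sets on both arrays were 12 of the 45 genes, or 26.7%, against 1.52% of all named genes. The 24 genes near background had wt signals from 1.39 to 97.2 with a median of 41.8, and *sgo2*Δ signals from 1.77 to 92.4 with a median of 44.1. The 19 genes at 100 or above on both arrays lay between 109 and 5572 in wt and between 107 and 6382 in *sgo2*Δ. The other 12 of the 24 genes exceeded the tag range on 1 array or both while staying under 100, and the signals of the list showed no gap at 100 (*mcp6* lay just under it and *mcp4* just above). The division at 100 followed the roles of the genes only in part.

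**Figure D1:**
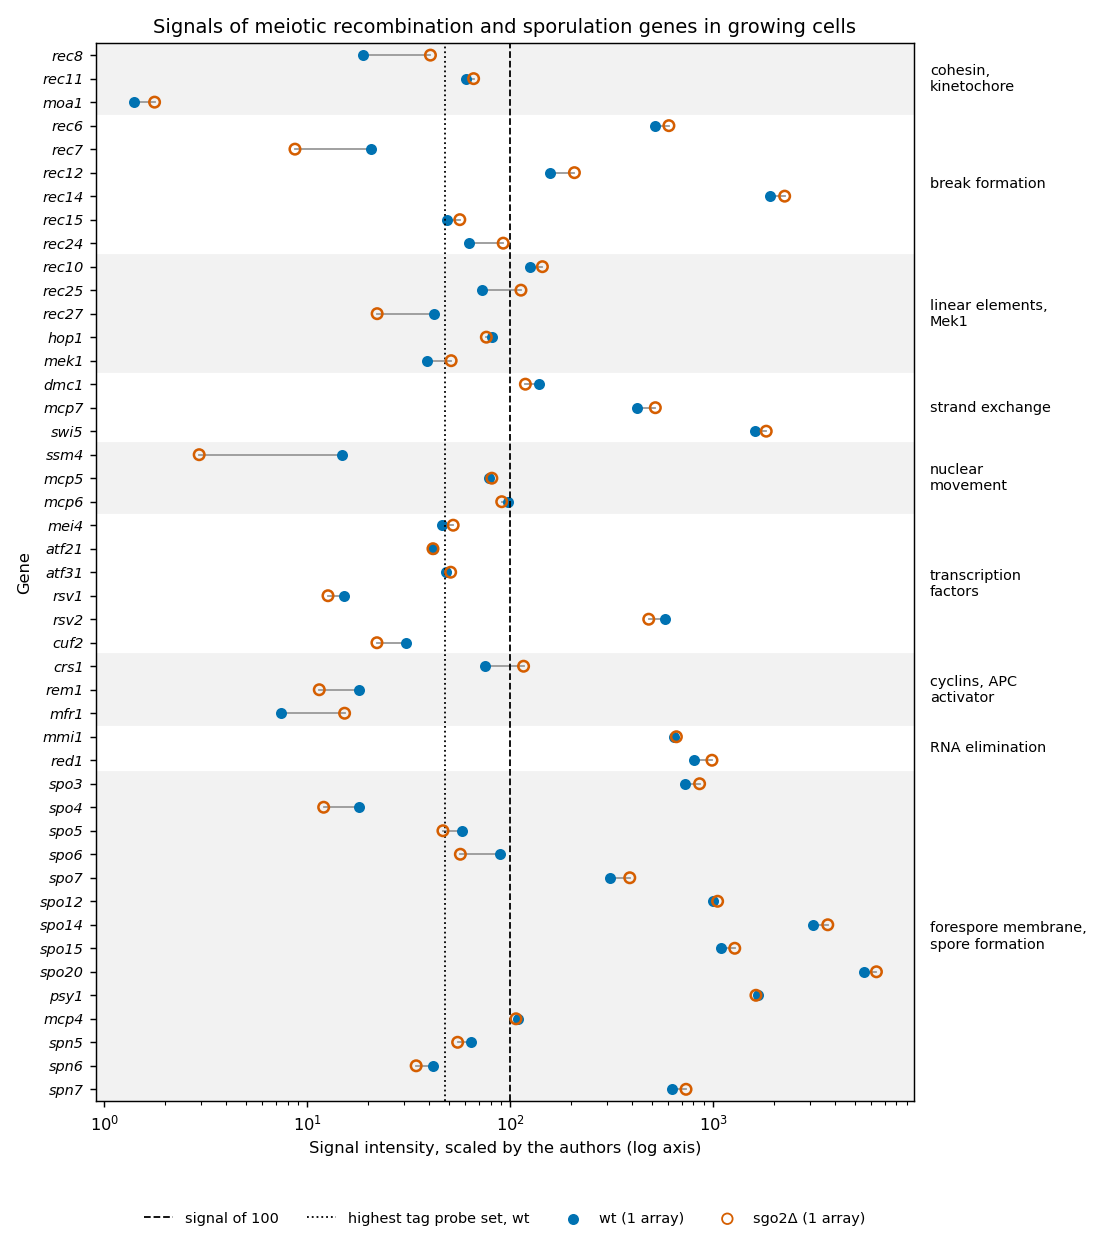
Signal intensity (log axis) of each of the 45 genes on the wt array (filled) and the *sgo2*Δ array (open), 1 array per strain, ordered by role, with the signal of 100 (dashed) and the highest tag probe set in wt (47.7, dotted). The 24 genes left of the dashed line on both arrays include all 3 genes of meiotic cohesin and kinetochore and all 3 of nuclear movement, while both genes of RNA elimination lie right of it.

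The 3 genes of meiotic cohesin and the meiotic kinetochore were all near background. *rec8* encodes the meiotic kleisin, the cohesin subunit that replaces Rad21, and its signals were 18.8 (wt) and 40.5 (*sgo2*Δ). *moa1*, whose product makes sister kinetochores face the same pole in the first division, had signals close to 0 (1.39 and 1.77). *rec11*, the cohesin subunit of chromosome arms, gave 60.6 and 66.0. All these signals but those of *rec11* lay within the range of probe sets without a target.

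The genes of double-strand break formation were divided. *rec12*, which encodes the break-making protein itself, had signals of 158 in wt and 207 in *sgo2*Δ, and *rec6*, the gene of a partner needed for the breaks, 516 and 606. *rec14*, which encodes a WD-repeat protein related to Ski8 of budding yeast, was far above background at 1901 and 2253. The genes of the accessory complex were near background, with *rec7* at 20.6 and 8.70, *rec15* at 48.8 and 56.5, and *rec24* at 62.7 and 92.4. Thus the 3 genes of the accessory complex were under 100 on both arrays, and the 3 others of this role were above it on both.

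Linear elements are the fission yeast counterpart of the synaptonemal complex, and 3 of the 5 genes of this role, counting the meiotic checkpoint kinase gene *mek1*, were near background. *rec10*, the gene of the main structural protein of linear elements, was just above 100 on both arrays (126 and 144). *rec25*, whose product marks sites of frequent breaks, was under 100 in wt and above it in *sgo2*Δ (72.5 and 113). Its partner gene *rec27* was within the tag range (42.0 and 22.1). *hop1*, which encodes a HORMA-domain protein, gave 81.1 and 76.3, and *mek1* gave 38.9 and 51.2. No gene of this role exceeded 144 on either array.

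All 3 measured genes of strand exchange reached 100 on both arrays. The gene of the meiotic recombinase, *dmc1*, did so narrowly (139 in wt and 119 in *sgo2*Δ). *mcp7*, whose product works with Meu13 in partner choice, gave 423 and 519. *swi5* was bright at 1612 and 1828, and its product also serves mating-type switching and repair in growing cells. In contrast, the 3 genes of the nuclear movement of meiotic prophase were near background on both arrays. *ssm4*, which encodes a dynactin subunit made in meiosis, had 14.8 in wt and 2.93 in *sgo2*Δ, *mcp5*, the gene of the cortical anchor of dynein, 78.3 and 81.2, and *mcp6*, whose product acts at the spindle pole body, 97.2 and 90.9.

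Among transcription factor genes, 5 of 6 were near background. *mei4*, the forkhead factor that switches on the genes of the meiotic divisions and of sporulation, gave 46.3 in wt and 52.4 in *sgo2*Δ. The bZIP factor genes *atf21* (41.5 and 41.6) and *atf31* (48.0 and 50.9) and the zinc-finger gene *rsv1* (15.2 and 12.7) were likewise under 100. *cuf2*, a meiotic relative of the copper regulator gene *cuf1*, gave 30.7 and 22.0. The exception was *rsv2*, a zinc-finger factor gene known for its role in spores, at 578 in wt and 482 in *sgo2*Δ. The cyclin gene *rem1* (18.1 and 11.5) and *mfr1* (7.41 and 15.3), the gene of a meiotic activator of the anaphase promoting complex, lay within the tag range. *crs1*, another meiotic cyclin gene, was under 100 in wt and above it in *sgo2*Δ (74.8 and 116).

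Both genes of RNA elimination were well above background. *mmi1* gave 641 in wt and 659 in *sgo2*Δ, and *red1* had 807 and 987. The Mmi1 targets named above were near background on both arrays, namely *mei4*, *rec8*, *ssm4* and *spo5*. They are examples and do not stand for all targets of Mmi1. The array measures only the RNA that is present, so a gene that is not transcribed and one whose transcript is destroyed cannot be told apart.

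The genes of spore formation ran from near background to very bright. Of 14 measured genes, 9 reached 100 on both arrays and 5 did not on either. Bright genes included those that serve secretion in every cell. *spo20*, the gene of a Sec14-type phospholipid transfer protein, had 5572 in wt and 6382 in *sgo2*Δ. *spo14*, which encodes a Sec12-related protein of vesicle budding, had 3102 and 3674. *psy1*, the gene of the plasma membrane syntaxin, had 1672 and 1626. *spo15*, a spindle pole body gene, gave 1098 and 1278, and *spo12*, related to a mitotic exit gene of budding yeast, gave 999 and 1053. Genes known from the forespore membrane were also above background, with *spo3* at 728 and 858, the pleckstrin homology gene *spo7* at 310 and 388, and *mcp4* just above 100 (109 and 107).

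The remaining spore genes were near background. The kinase gene *spo4* (18.0 and 12.0) and the gene of its regulatory subunit, *spo6* (89.3 and 56.8), are meiotic relatives of *hsk1* and *dfp1*. *spo5*, which encodes an RNA-binding protein of the second division, gave 58.1 and 46.6. The meiotic septins were divided, since *spn5* (64.4 and 55.1) and *spn6* (41.5 and 34.4) were near background and *spn7* was not (629 and 735). By the brighter of their signals, *mcp6*, *rec24* and *spo6* were nearest below the mark of 100, *mcp4* lay just above it on both arrays, and only *rec25* and *crs1* crossed it.

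Next, *sgo2*Δ was compared with wt, a comparison that asks how the loss of Sgo2, and of the condensed chromatin knobs that depend on it, affects gene expression. None of the 21 genes that reached 100 on 1 array or both was at least 2-fold higher or lower in *sgo2*Δ, where 0.536% of 2796 named genes were at least 2-fold higher and 0.0358% at least 2-fold lower. The median over the 21 genes was a log2 ratio of 0.23, against 0.13 over all named genes. The 95% order-statistic interval of that median, taken over the 21 genes and not over arrays, ran from 0.075 to 0.29. It includes the 0.13 of all named genes and does not cover variation between cultures. A ratio above 0 was found in 17 of the 21 genes, or 81.0%, and in 84.7% of all named genes that reached 100. After the shift was subtracted, 15 of the 21 remained above 0. The median, its interval and these counts include *crs1* and *rec25*, which reached 100 in *sgo2*Δ alone. Among the 19 genes that reached 100 on both arrays, 15 had a ratio above 0 before the shift was subtracted. None of the 45 genes lies within 100 kb of an end of chromosome 1 or 2 of ASM294v3, an assembly taken from the gene table and not from the array files. The share of all named genes that do is not given here, and any part of position in these ratios was not tested.

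The ratios furthest from 0 among the 21 genes were small. *crs1* and *rec25* had the highest log2 ratios, 0.64 each, or 1.56-fold by measured signals, but their wt signals were under 100 and they were at least 1.16-fold and 1.13-fold higher with those set to 100. Both passed the mark only through their *sgo2*Δ signal. Of the 19 genes at 100 or above on both arrays, *rec12* had the highest log2 ratio (0.40) and *rsv2* the lowest (-0.26), with *dmc1* at -0.23. This order depended on the scaling, since after quantile normalization *dmc1* (-0.62) and *mcp4* (-0.45) lay below *rsv2* (-0.43), and *spo7* (0.15) and *mcp7* (0.13) above *rec12* (0.11). As deposited, the 15 of these 19 genes with a positive log2 ratio ran up to that of *rec12*. The RNA elimination genes gave 0.04 for *mmi1* and 0.29 for *red1*. That of *mmi1* was -0.09 after the shift was subtracted and -0.10 after quantile normalization, so its direction depended on the scaling.

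As there are no replicate arrays, the spread of ratios among all named genes of like signal was used only as a scale. It also holds differences between probe sets and any effect of the deletion, so it does not measure the error between arrays or cultures. The spread widened towards low signals. From the 5th to the 95th percentile, log2 ratios ran from -0.03 to 0.28 in 1122 genes with a geometric mean signal of at least 2000, from -0.11 to 0.34 between 500 and 2000, and from -0.20 to 0.40 between 200 and 500. They ran from -0.36 to 0.61 between 100 and 200, from -0.48 to 0.76 between 50 and 100, and from -1.26 to 2.0 in 59 genes under 50. Of the 45 genes, 3 lay outside the range of their class (6.67%, against 10.2% of all named genes), and all 3 lay below it. The share over all named genes is set by the choice of percentiles, which were taken from the same genes, the 45 included. Nothing is therefore read from the comparison of these shares. The 3 genes below their range were *rsv2* (-0.26), *spo6* (-0.65) and *ssm4* (-2.33).

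The largest measured ratios of the list belonged to genes near background. The log2 ratio was 1.11 for *rec8*, 1.04 for *mfr1*, -1.25 for *rec7* and -2.33 for *ssm4*. All 4 genes stayed within the range of the tag probe sets on both arrays, so no fold can be read from these ratios. Among the 24 genes near background, 11 were brighter in *sgo2*Δ (45.8%), against 53 of the 79 other named genes under 100 on both arrays (67.1%). The 11 were 4 of the 12 genes within the tag range on both arrays and 7 of the 12 others. At such signals no direction is read from these shares.

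**Figure D2:**
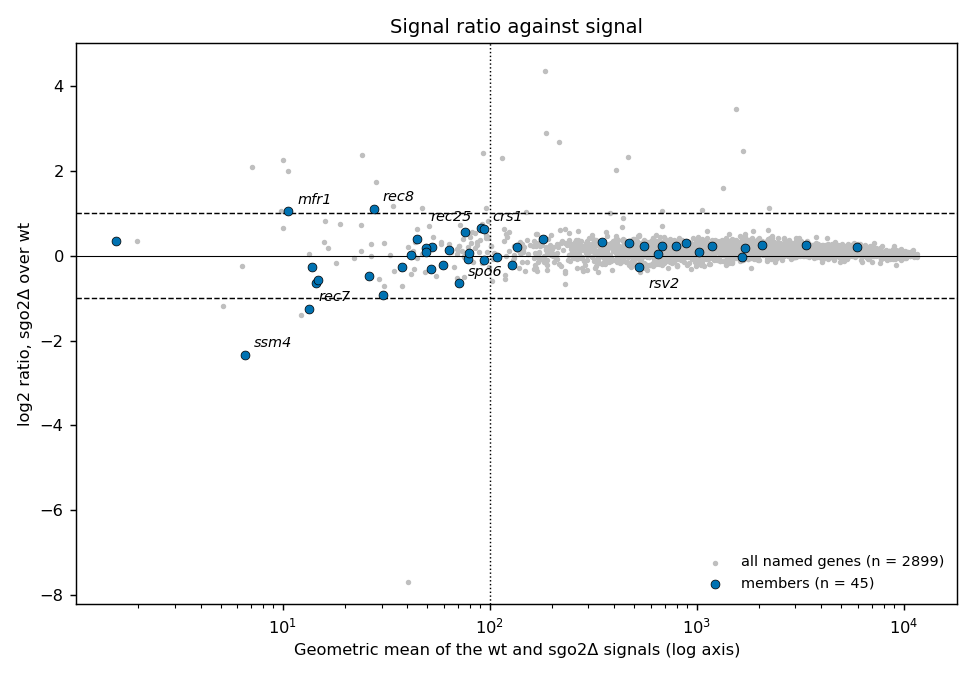
log2 ratio of *sgo2*Δ over wt against the geometric mean of both signals (log axis) for all 2899 named genes (grey) and the 45 genes of the list (blue), with 2-fold changes (dashed) and a signal of 100 (dotted). The 4 listed genes beyond the dashed lines, *ssm4*, *rec7*, *rec8* and *mfr1*, all lie at mean signals under 50, where the grey points also spread, and the grey point near the lower edge is *sgo2*.

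The chromosomal neighbours of the genes near background were like other named genes in how few of them lay under 100. In the order of protein-coding genes of ASM294v3, 21 of the 24 genes had at least 1 adjacent gene with a probe set, and 11 had both. None of these 32 neighbours was under 100 on both arrays, near the 3.55% of all named genes, so nothing particular to these neighbours is read from it. Their wt signals ran from 151 to 9792 with a median of 1500. *mei4*, at 46.3 in wt, lies between the kinase gene *cdk9* (1181) and the actin gene *act1* (9792). *rec8*, at 18.8, lies between *atp7* (5000), which encodes a subunit of the ATP synthase, and *orc1* (1337), which encodes a subunit of the origin recognition complex.

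*moa1* lies between *vps29* (2951 in wt) and *naa10* (6115), *spo5* between *ccr1* (3084) and *pcf1* (1724), and *ssm4* between *but1* (1151) and *tpr1* (827). The neighbours closest to the mark of 100 were the Dicer gene *dcr1* beside *spn6* (151 in wt and 155 in *sgo2*Δ) and the gluconeogenesis gene *fbp1* beside *mfr1* (198 and 200). No 2 genes of the list were adjacent. None of the 32 neighbours differed 2-fold between the strains, and their log2 ratios ran from -0.18 to 0.30. Of 2796 named genes that reached 100, 0.536% were at least 2-fold higher and 0.0358% lower, so nothing particular to these neighbours is read from it. Of 31 measured neighbours of the 21 brighter genes, 1 was under 100 on both arrays, a share near the 3.55% of all named genes. It was the meiotic gene *mcp3* beside *red1* (24.2 and 29.2).

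**Figure D3:**
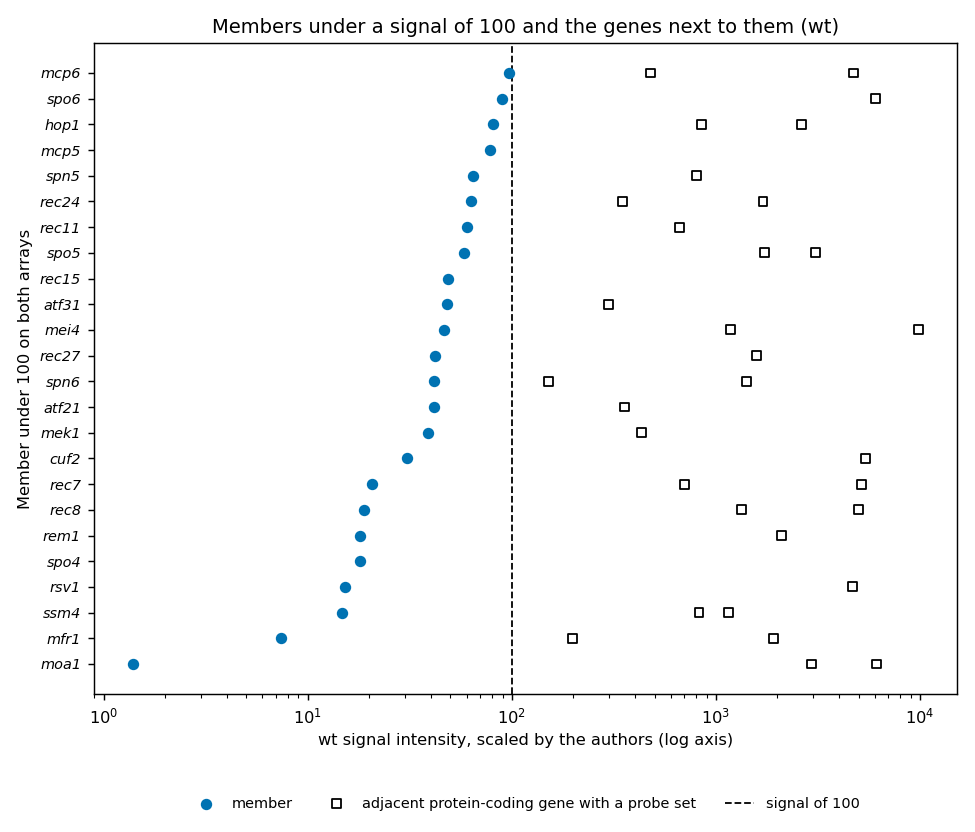
wt signal (log axis) of the 24 genes under 100 on both arrays (blue) and of the adjacent protein-coding genes that have a probe set (open squares, 32 in all). All squares lie right of the signal of 100 (dashed), from 151 to 9792, and *mcp5*, *rec15* and *spo4* have no measured neighbour.

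Related gene lists gave a scale for the share near background. Of 17 other meiosis genes with a probe set, 7 were under 100 on both arrays (41.2%), as were 26 of 91 genes named *mug* for meiotic upregulation (28.6%) and 2 of 12 genes of the spore wall (16.7%). The latter 2 were *meu10* (39.1 in wt and 48.5 in *sgo2*Δ) and *isp3* (55.8 and 92.3), whereas most spore wall genes, such as *bgs2* (435 and 420), the gene of a glucan synthase of spores, gave a clear signal. The log2 ratio of *bgs2* was the lowest of the spore wall genes that reached 100 (-0.05), and the highest was that of *meu14* (0.51, from 142 and 202), whose product forms the leading edge of the forespore membrane. Among the other meiosis genes, *mes1*, the gene of an inhibitor of the anaphase promoting complex, had 337 and 330 (the lowest log2 ratio, -0.03) and *bqt1*, a telomere bouquet gene, 201 and 292 (the highest, 0.54). None of these 3 lists held a gene at 100 or above that differed 2-fold, near the 0.536% higher and 0.0358% lower of 2796 named genes. The median log2 ratios of their genes that reached 100 were 0.22, 0.18 and 0.23 for other meiosis genes, *mug* genes and spore wall genes, beside 0.23 for the listed genes and 0.13 for all named genes.

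All 19 measured vegetative relatives and partners of the listed proteins reached 100 on both arrays, a share under 100 that is near the 3.55% of all named genes. Of the 19, 0 differed 2-fold, near the 0.536% higher and 0.0358% lower of all named genes that reached 100. Their median log2 ratio was 0.08 (lowest -0.24 for the forkhead gene *sep1* and highest 0.57 for the kinase gene *hsk1*). Thus *rad21* (622 and 655) and *psc3* (312 and 369), the cohesin genes of growing cells, gave a signal where *rec8* and *rec11* were near background. The septin genes *spn1* to *spn4*, which act in cell division, gave at least 1448 in wt, whereas *spn5* and *spn6* lay under 100.

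Of 12 recombination genes that also serve mitotic repair, 1 was under 100 on both arrays (8.33%, against 3.55% of all named genes) and 11 reached it (median log2 ratio 0.13, lowest 0.04 for *mus81* and highest 0.23 for *nbs1*). The gene under 100 was *rad22*, now *rad52* (97.5 and 86.3). Of 11 further genes of the Mmi1 and Red1 pathway, 5 had a probe set. All 5 reached 100 on 1 array or both (median log2 ratio 0.16), a share under 100 that is near the 3.55% of all named genes. They included *pab2*, the nuclear poly(A)-binding protein gene (4033 and 4563), the exosome gene *rrp6* (724 and 702, the lowest log2 ratio at -0.04) and *mei2*, the gene of the RNA-binding protein that captures Mmi1 in meiosis (85.4 and 114, the highest at 0.41). *mei2* reached 100 in *sgo2*Δ alone and is also counted among the other meiosis genes.

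**Figure D4:**
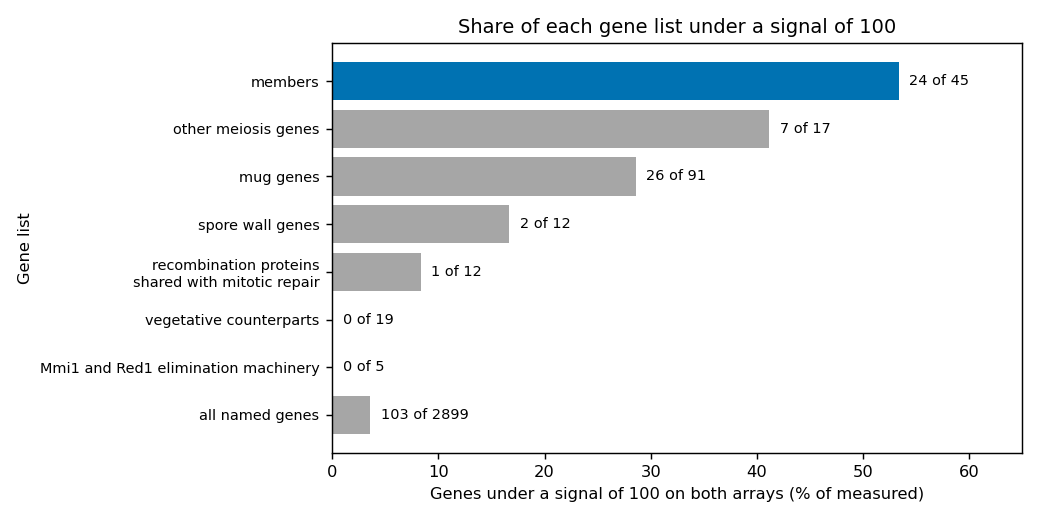
Percentage of the measured genes of each list that were under a signal of 100 on both arrays, with the count beside each bar. The genes of meiotic recombination and sporulation (blue) had 24 of 45 under 100, the vegetative counterparts 0 of 19 and all named genes 103 of 2899.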

How the data were processed

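RNA of 1 wt and 1 *sgo2*Δ culture was hybridized to 1 array each. The authors obtained the deposited linear signal intensities and scaled them with GCOS 1.4 under its default settings, with *S. cerevisiae* probe sets masked. Both column medians are 0, and 5748 of 10928 probe sets are at 0 on both arrays. The target of the scaling is not given in the sources used here. For naming, probe sets (2917 naming 1 gene, 20 naming several, 2062 none) were matched through the platform annotation and the gene table of ASM294v3. Log2 signals of several probe sets of a gene were averaged, which concerned 14 genes and none of the list. Ratios used signals raised to 100 where lower for bounds and as measured otherwise, and a change was called from 2-fold where 1 array reached 100. Of these steps, only the rule for calling a change was tested on simulated data. There, changes were set in genes at 100 or above in wt. The spread of ratios was the same at every signal, unlike that of the arrays.

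The listed genes, their roles and the comparison lists were chosen with earlier results of these data known. By rule, values were to be given for every listed gene that reached 100, for the 3 nearest under it and *mei4*, *rec8*, *dmc1* and *spo5*, for the highest and lowest log2 ratio of each comparison list among genes that reached 100, and for genes of a list under 100 where these were 3 or fewer. The other listed genes, further genes of these lists and the neighbours were added after their values were seen. Alternatives were other floors, scalings, a pseudocount and another fold. The software was Python 3.11.15 with matplotlib 3.10.9, scipy 1.17.1, pandas 2.3.3 and numpy 2.4.6.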

Additional observations from a re-analysis of the deposited data

How the results depend on the processing

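No paired analysis was possible because there is a single array of either strain, nor could any replicate be omitted. Signals under 100 are limited by background. With a floor of 50, or at the highest tag signal of each array, 12 of the 45 genes were under it on both arrays instead of 24, and 49 and 44 of all named genes instead of 103. With a floor of 200, these counts were 29 and 183. At a fold of 1.5, 2 genes were higher by measured signals (*crs1* and *rec25*). With their wt signals, under 100, set to 100 they were at least 1.16-fold and 1.13-fold higher, short of that fold. Of the 2796 named genes that reached 100 on 1 array or both, 31 (1.11%) were at least 1.5-fold higher or lower by measured signals. With no floor, chosen after seeing the data, 2 were at least 2-fold higher (*rec8* and *mfr1*) and 2 lower (*rec7* and *ssm4*). Quantile normalization left 1 gene at least 2-fold lower, *spo6* (106 in wt and 52.3 in *sgo2*Δ), and moved the median log2 ratio of the genes that reached 100 from 0.23 to 0.050, with -0.020 for all named genes. For no floor and for quantile normalization, the share of all named genes that differed 2-fold is not given here. The counts under these settings are therefore not read as a result. The log2 ratios of *mmi1* and *spo12* turned below 0 after centring and after quantile normalization, and those of *rec10* and *swi5* after the latter alone. Of 40 comparison values under an alternative, 30 kept within 1.5 times or within their interval and 10 did not. Some of the 30 could not move, such as those of the listed genes under the brightest probe set. The median log2 ratio of the listed genes counted as kept at 0.098 after centring and at 0.12 with no floor, against 0.23. No stability is therefore read from this tally. Of 84 values of the log2 ratio of a single gene, 63 moved by no more than an SD taken from the 5th to 95th percentile range of their signal class and 21 by more, of which 18 came from quantile normalization (18 of the 21 genes) and 3 from centring. The 63 include 21 values for the brightest probe set, which could not move because each listed gene has 1 probe set. Other than by construction, the cause was not tested.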
